A study of Mus musculus with 12 samples.

Results

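The genes of TGF-beta, activin and BMP signaling were followed in resident macrophages (RM) and CD11b+ dendritic cells (CD11b+ DC) of the mouse cecum, with and without the transcription factor Runx3. The 38 member genes were taken from a list of the pathway's ligands, ligand-processing proteins, receptors, Smads, Smad regulators and targets. The rule names genes by their place in the pathway and sets no threshold on a measured value, though earlier results of these data were known when the list was made. All 38 had a row on the array, of 19938 genes with a row that carries 1 gene symbol and of 35556 rows in all. The 12 samples were RM of WT mice (n = 3), RM of Runx3Δ mice (n = 4), CD11b+ DC of WT mice (n = 2) and CD11b+ DC of Runx3Δ mice (n = 3). Runx3Δ mice carried floxed Runx3 alleles and a CD11c-Cre transgene, so that deletion takes place in cells that express CD11c and is not limited to a single type of phagocyte. WT mice were littermates with intact Runx3, and mice of both genotypes were 6 to 8 weeks old, of both sexes, on a C57Bl/6 background. Each sample was a pool of sorted cells from 3 to 4 mice. Both sorts took CD45+, CD11c+, MHCII+, CD11b+ and Ly6c- cells, and cells positive for the macrophage antigen that Adgre1 encodes were collected as RM and negative cells as CD11b+ DC.

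TGF-beta is made as a latent dimer that furin-type proteases cleave and that latent TGF-beta binding proteins, or Lrrc32 (GARP) on the cell surface, hold until it is released. A free ligand of the family brings together type II and type I receptor kinases. TGF-beta and activin receptors phosphorylate Smad2 and Smad3, and BMP receptors phosphorylate Smad1 and Smad5. The receptor-regulated Smads join Smad4 and enter the nucleus, where they act on targets with other factors, Runx proteins among them, and where Ski, Skil and Tgif1 hold them back. Smad6, Smad7, Pmepa1 and the ligases Smurf1 and Smurf2 limit the signal, and most of these inhibitors are themselves induced by it. In the gut wall, TGF-beta signaling through Tgfbr1 and Tgfbr2 is known as a driver of the maturation of monocytes into resident macrophages.

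Start-site sequences are shown for the member genes on which the comparisons turn and for which RefSeq promoters were at hand: Tgfbr1, Tgfbr2 and Smad6, which differed between the cell types, and Inhba, Cited2 and Furin, which passed the study's thresholds by genotype. Each run holds the 250 bases before the transcription start and the first 20 after it, read 5′ to 3′ on the gene's strand from RefSeq promoters of build GRCm38.p6. Capitals mark each match to a RUNX motif (TGTGGT or TGCGGT), a Smad-binding motif (CAGACA or GTCTAGAC) or a BMP-responsive GC motif (GGCGCC), searched on both strands.
Tgfbr1: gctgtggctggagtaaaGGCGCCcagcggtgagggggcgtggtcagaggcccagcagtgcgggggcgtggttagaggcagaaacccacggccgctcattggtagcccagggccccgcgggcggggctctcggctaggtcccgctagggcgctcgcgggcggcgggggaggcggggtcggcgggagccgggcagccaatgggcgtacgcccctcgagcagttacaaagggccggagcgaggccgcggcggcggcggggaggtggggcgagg
Tgfbr2: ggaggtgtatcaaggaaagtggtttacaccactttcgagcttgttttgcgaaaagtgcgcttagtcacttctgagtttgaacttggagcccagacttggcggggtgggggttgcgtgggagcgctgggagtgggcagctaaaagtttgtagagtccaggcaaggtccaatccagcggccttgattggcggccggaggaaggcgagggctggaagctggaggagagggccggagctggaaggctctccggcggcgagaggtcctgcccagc
Smad6: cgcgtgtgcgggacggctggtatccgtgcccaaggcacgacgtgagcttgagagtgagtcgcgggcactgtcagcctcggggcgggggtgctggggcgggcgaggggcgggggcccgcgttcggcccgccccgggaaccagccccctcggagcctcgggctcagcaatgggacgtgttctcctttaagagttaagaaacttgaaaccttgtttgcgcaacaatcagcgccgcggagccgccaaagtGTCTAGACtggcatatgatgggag
Inhba: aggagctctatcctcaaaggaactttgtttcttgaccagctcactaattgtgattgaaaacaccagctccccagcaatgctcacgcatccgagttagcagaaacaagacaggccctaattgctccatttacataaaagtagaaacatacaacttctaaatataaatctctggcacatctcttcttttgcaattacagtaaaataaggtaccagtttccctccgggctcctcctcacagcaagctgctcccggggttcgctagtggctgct
Cited2: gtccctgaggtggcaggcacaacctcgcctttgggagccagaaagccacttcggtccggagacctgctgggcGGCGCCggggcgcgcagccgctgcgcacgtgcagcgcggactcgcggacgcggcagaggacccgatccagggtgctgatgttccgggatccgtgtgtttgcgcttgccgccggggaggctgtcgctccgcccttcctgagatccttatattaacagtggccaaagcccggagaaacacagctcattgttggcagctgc
Furin: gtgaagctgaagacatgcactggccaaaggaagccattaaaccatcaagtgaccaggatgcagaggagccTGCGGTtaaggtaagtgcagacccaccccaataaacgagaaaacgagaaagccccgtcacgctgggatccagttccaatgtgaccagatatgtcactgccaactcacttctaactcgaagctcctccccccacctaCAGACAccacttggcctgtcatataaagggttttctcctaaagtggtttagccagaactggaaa
The positions, in the same order as the runs, were chr4:47352972-47353241 (plus strand), chr9:116175344-116175613 (minus strand), chr9:64022040-64022309 (minus strand), chr13:16011601-16011870 (plus strand), chr10:17722978-17723247 (plus strand) and chr7:80405417-80405686 (minus strand). Counted from the start, with negative numbers before it, the RUNX match in Furin began at -180 and the CAGACA match at -44. In Smad6 the palindrome GTCTAGAC began at -4 and ran across the start, and GGCGCC began at -233 in Tgfbr1 and at -178 in Cited2. Tgfbr1 and Furin each have 1 other RefSeq start, not shown, whose window held CAGACA at -203 in Tgfbr1, and in Furin CAGACA at -190 and GGCGCC at -183 and -55. The starts shown for these genes were picked by their matches. For Furin the start with the RUNX motif was taken, and for Tgfbr1 the start without CAGACA. The Tgfbr2 and Inhba runs held no match.

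Of the 38 members, 26 had 1 or more RefSeq promoters, 35 promoters in all, each 250 bases before to 50 bases after a start. Entries were not at hand for Pmepa1, Tgfb3, Skil, Bambi, Tgfbr3, Fst, Id1, Smad2, Smad4, Lrrc32, Bmp2 and Smad7. TGTGGT stood in 1 member promoter (Ltbp1), or 2.86%, and in 16.8% of all 32851 promoters of the same length. TGCGGT stood in 3 (Acvr2a, Furin and Smurf2), or 8.57%, against 6.45% of all. One or the other RUNX motif stood in 4, or 11.4%, against 22.4% of all. CAGACA was found in 28.6% of member promoters against 21.0% of all, and GTCTAGAC in 1 promoter (Smad6), or 2.86%, against 0.213%. GGCGCC, whose letters are common in CpG-rich starts, was found in 31.4% against 11.9%. The motifs do not contain one another. These are counts of letters in short windows and were not tested.

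The sorted cells carried the markers of their labels. Of 10 macrophage markers, Adgre1 of the sort among them, 9 were higher in RM than in CD11b+ DC of WT mice at an adjusted p under 0.05, and the mean log2 level over the 10 was 10.82 to 11.33 in WT RM and 9.26 to 9.43 in WT CD11b+ DC. Of 9 dendritic cell markers, 8 were lower in RM and 1 was higher, with mean levels of 8.45 to 8.91 in WT RM and 10.33 to 10.40 in WT CD11b+ DC. The Runx3 row read 9.83, 9.48 and 9.76 in WT RM and 10.18, 9.87, 9.88 and 9.85 in Runx3Δ RM, and 10.11 and 9.99 in WT and 10.14, 10.01 and 9.97 in Runx3Δ CD11b+ DC. The deletion removes 1 exon, and the row sums probes along the gene, so that it does not check the deletion. In all that follows a level is a normalised log2 intensity, a difference is on the same log2 scale, and levels are compared between samples for 1 gene at a time. Fewer cells of a type and less RNA per cell cannot be told apart in such pools. The mean level over the 38 members was 7.95 to 8.04 in WT RM, 7.81 to 7.99 in Runx3Δ RM, 7.59 to 7.79 in WT CD11b+ DC and 7.58 to 7.72 in Runx3Δ CD11b+ DC. A single member, Bmpr1a, was under a log2 level of 5 in every sample, and 5 others (Tgfb2, Acvr2b, Tgfbr3, Ltbp1 and Fst) were under 6 in every sample, near the low end of the array.

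**Figure D1:**
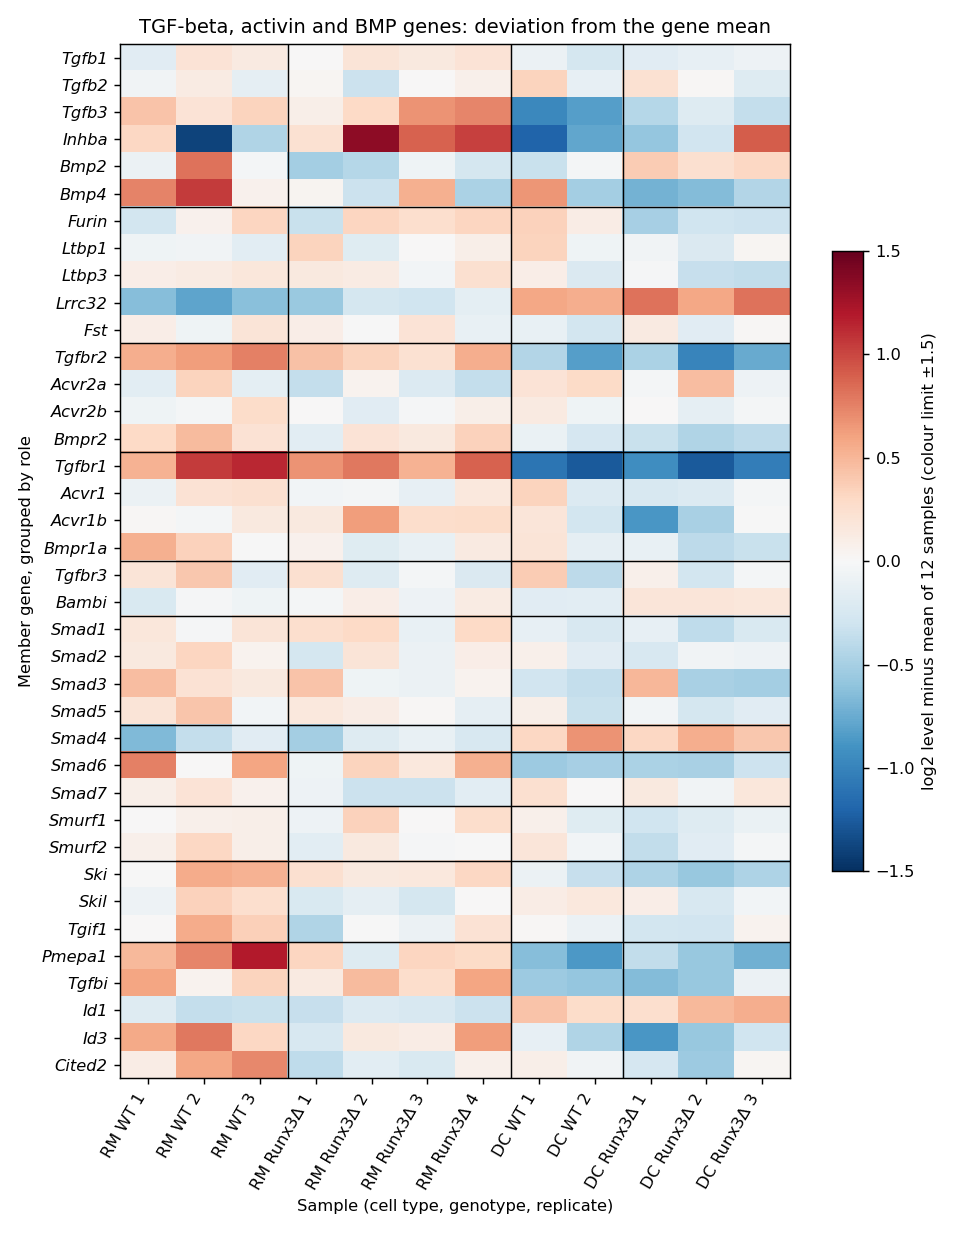
Level of each of the 38 member genes (rows, grouped by role and divided by black lines) in each of the 12 samples (columns), as the log2 level minus the gene's mean over all samples, red above and blue below. Tgfbr1, Tgfbr2, Tgfb3 and Pmepa1 are red across the RM columns, except Pmepa1 in RM Runx3Δ 2, and blue across the CD11b+ DC columns, whereas Lrrc32, Smad4 and Id1 run the other way.

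The first comparison asked how the pathway differs between the cell types in WT mice. RM had far more receptor transcript for TGF-beta itself and less Smad4 and Lrrc32. In limma's 4-group fit 9 of 38 members passed an adjusted p of 0.05, 6 higher and 3 lower in RM, or 23.7% of members against 6.07% of all rows (3.05% higher and 3.02% lower) and 8.45% of the 19938 genes. The higher mean was in RM for 30 of 38, and the median difference was 0.24, against 0.01 over all genes. This median depends on the WT CD11b+ DC samples. Without the second it was 0.09, with 15 of 38 below 0, and without the first 0.35, with 6 below 0.

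Markers of other cells also differed in this contrast. All 8 B and plasma cell markers had the higher mean in RM of WT mice, 6 at the study's thresholds of a fold of 1.5 and an unadjusted p of 0.05, with a median difference of 1.11. Their mean level was 8.22 to 9.65 in WT RM and 7.37 to 8.16 in WT CD11b+ DC, and the median difference in Runx3Δ mice was 1.13. Of 16 stromal markers 15 had the higher mean in RM in each genotype, 2 at those thresholds in WT and 3 in Runx3Δ, with medians of 0.17 and 0.32. The part of these cells in the members' differences was not tested.

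Tgfbr1, the type I receptor that carries the TGF-beta signal, had the largest difference of the 38. It read 10.42, 10.95 and 11.03 in WT RM and 8.80 and 8.64 in WT CD11b+ DC. The groups lie far apart, and RM were 4.23-fold higher (log2 difference 2.08, SE 0.18, adjusted p = 9.44e-05). The other 3 type I receptors, Acvr1, Acvr1b and Bmpr1a, differed by 0.06 to 0.26 and none passed.

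Tgfbr2, the type II receptor that binds TGF-beta, read 10.24, 10.32 and 10.45 in WT RM and 9.25 and 8.87 in WT CD11b+ DC. Its difference was 1.28 (SE 0.17, 2.42-fold, adjusted p = 0.000966). Both chains of the TGF-beta receptor were higher in RM, while the activin type II receptors were not called: Acvr2a differed by -0.25 and Acvr2b by 0.03. Bmpr2, the BMP type II receptor, differed by 0.50 (adjusted p = 0.0648). The co-receptor Tgfbr3 differed by 0.15 and the decoy receptor Bambi by 0.06.

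Among the 6 ligands, Tgfb3 passed. It read 6.80, 6.58 and 6.71 in WT RM and 5.41 and 5.54 in WT CD11b+ DC, a difference of 1.22 (SE 0.18, 2.33-fold, adjusted p = 0.00202). Tgfb1, the main TGF-beta of leukocytes, read 11.38, 11.75 and 11.68 in WT RM and 11.46 and 11.29 in WT CD11b+ DC. These groups overlap, and the difference of 0.23 did not pass (adjusted p = 0.398). Inhba, which encodes the subunit of activin A, differed by 0.48 with an SE of 0.52, Bmp2 by 0.42, Bmp4 by 0.54 and Tgfb2 by -0.13.

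Of the genes that process, store or trap ligand, Lrrc32 ran against the receptors. It read 7.58, 7.43 and 7.59 in WT RM and 8.80 and 8.77 in WT CD11b+ DC. RM were lower by 1.25 on the log2 scale, a 2.38-fold difference (log2 difference -1.25, SE 0.13, adjusted p = 0.000241). Furin (-0.19), Ltbp1 (-0.21), Ltbp3 (0.19) and the activin trap Fst (0.27) did not pass.

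All 4 receptor-regulated Smads had the higher mean in RM, by 0.22 to 0.60, and none passed. Smad2 read 8.03, 8.21 and 7.94 in WT RM and 7.96 and 7.71 in WT CD11b+ DC. Smad3 read 9.13, 8.88 and 8.81 against 8.37 and 8.30, with no overlap and a difference of 0.60 (adjusted p = 0.287). The common partner Smad4 read 9.91, 10.22 and 10.41 in WT RM and 10.88 and 11.25 in WT CD11b+ DC. It was lower in RM (log2 difference -0.89, SE 0.17, 1.85-fold, adjusted p = 0.0104).

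The inhibitory Smads did not move together. Smad6, which acts mainly against BMP signals, read 6.89, 6.14 and 6.72 in WT RM and 5.59 and 5.63 in WT CD11b+ DC, a difference of 0.97 (SE 0.21, adjusted p = 0.0207). Smad7, which blocks the TGF-beta receptor and is one of its quickest targets, read 7.60, 7.72 and 7.57 against 7.75 and 7.52. That is a difference of -0.01 (95% interval -0.28 to 0.25), with overlapping groups. Smurf1 and Smurf2 differed by 0.12 and 0.09.

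Among targets and cofactors, Pmepa1 and Tgfbi were higher in RM and Id1 was lower. Pmepa1, a membrane protein that TGF-beta induces and that takes Smad2 and Smad3 away from the receptor, read 10.45, 10.70 and 11.15 in WT RM and 9.33 and 9.10 in WT CD11b+ DC (difference 1.56, SE 0.21, 2.94-fold, adjusted p = 0.0014). Tgfbi, a secreted matrix protein named for its induction by TGF-beta, read 13.08, 12.54 and 12.83 against 11.95 and 11.91 (difference 0.89, SE 0.20, adjusted p = 0.0248). Each of these pairs of groups was fully separate.

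Id1 and Id3 are classical BMP targets that block basic helix-loop-helix factors, and their differences had opposite signs. Id1 read 6.15, 5.98 and 6.01 in WT RM and 6.77 and 6.62 in WT CD11b+ DC (difference -0.65, SE 0.11, adjusted p = 0.00567). Id3 differed by 0.84 (adjusted p = 0.0752). The corepressor Ski read 9.02, 9.58 and 9.55 against 8.94 and 8.68, a difference of 0.58 (adjusted p = 0.0648), and Skil and Tgif1 differed by 0.04 and 0.35. The WT CD11b+ DC group holds 2 samples. Without its first sample, 6 members passed (Lrrc32, Pmepa1, Smad4, Tgfb3, Tgfbr1 and Tgfbr2) and without its second, 6 (Id1, Lrrc32, Pmepa1, Tgfb3, Tgfbr1 and Tgfbr2).

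**Figure D2:**
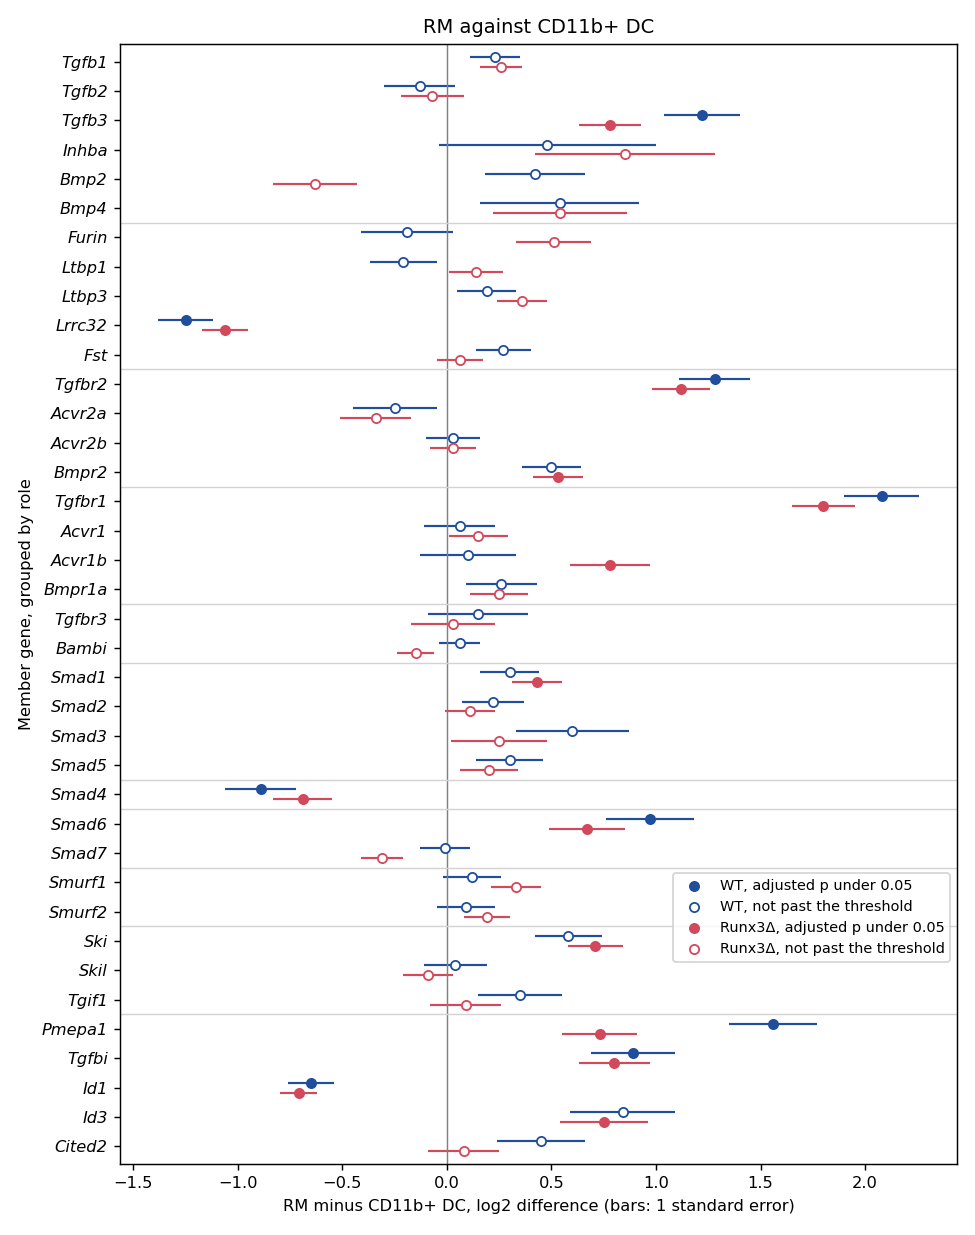
Log2 difference between RM and CD11b+ DC for each member gene (rows, grouped by role) in WT mice (blue) and in Runx3Δ mice (red), with bars of 1 standard error and filled points where the adjusted p was under 0.05. Tgfbr1 lies farthest right in both genotypes, at 2.08 in WT and 1.80 in Runx3Δ, and Lrrc32 farthest left, at -1.25 and -1.06.

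The same contrast in Runx3Δ mice used none of the WT samples, although the fit shares 1 estimate of spread over all samples. In it 14 of 38 members passed, 11 higher and 3 lower in RM, or 36.8% against 7.85% of all rows (3.73% higher and 4.12% lower) and 10.6% of genes. The 9 members called in WT were all called again with the same sign, and Acvr1b, Bmpr2, Id3, Ski and Smad1 were called besides. Runx3Δ had 7 samples in this contrast and WT 5, and a call in one genotype and not in the other is not a difference between genotypes, which is tested below.

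The order and size of the leading differences were close in the 2 genotypes for the receptors. Tgfbr1 read 10.57, 10.69, 10.42 and 10.78 in Runx3Δ RM and 8.96, 8.64 and 8.86 in Runx3Δ CD11b+ DC, a difference of 1.80 (SE 0.15, adjusted p = 5.82e-05). Tgfbr2 read 10.13, 10.02, 9.92 and 10.23 against 9.22, 8.70 and 8.94, a difference of 1.12 (SE 0.14, adjusted p = 0.000555). Within litters, the RM sample exceeded the CD11b+ DC sample of its genotype by 1.61 to 2.39 for Tgfbr1 and by 0.91 to 1.58 for Tgfbr2, in each of 5 litter pairs of both genotypes. Both receptors thus stood higher in RM in every litter in which the 2 cell types could be paired.

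Lrrc32 read 7.66, 7.96, 7.92 and 8.07 in Runx3Δ RM and 9.04, 8.80 and 9.04 in Runx3Δ CD11b+ DC (difference -1.06, SE 0.11, adjusted p = 0.000177). Smad4 read 10.06, 10.38, 10.46 and 10.33 against 10.89, 11.12 and 10.98 (difference -0.69, adjusted p = 0.0133). Id1 read 6.00, 6.14, 6.10 and 6.02 against 6.60, 6.83 and 6.89 (difference -0.71, adjusted p = 0.000834). These 3 were the members called lower in RM, with no overlap between cell types.

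Tgfb3 read 6.46, 6.67, 7.05 and 7.10 in Runx3Δ RM and 5.94, 6.18 and 6.02 in Runx3Δ CD11b+ DC (difference 0.78, adjusted p = 0.00847). Smad6 read 6.06, 6.46, 6.29 and 6.66 against 5.65, 5.64 and 5.82 (difference 0.67, adjusted p = 0.0451), and Tgfbi 12.62, 12.97, 12.75 and 13.08 against 11.84, 11.92 and 12.40 (difference 0.80, adjusted p = 0.0141). Pmepa1 had a difference of 0.73 here (adjusted p = 0.0292) against 1.56 in WT. The corepressor Ski read 9.27, 9.17, 9.19 and 9.34 against 8.57, 8.46 and 8.57 (difference 0.71, adjusted p = 0.00778).

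Among members called in Runx3Δ alone, Acvr1b, an activin type I receptor, differed by 0.78 (adjusted p = 0.0313), Id3 by 0.75 (adjusted p = 0.0497), Bmpr2 by 0.53 (adjusted p = 0.0188) and Smad1, a receptor-regulated Smad of the BMP branch, by 0.43 (adjusted p = 0.0483). Bmp2 had the lower mean in RM here, with a difference of -0.63 (adjusted p = 0.0954). Several of these calls rest on single samples. Without Runx3Δ CD11b+ DC sample 2, 6 members passed (Id1, Lrrc32, Ski, Tgfb3, Tgfbr1 and Tgfbr2), without sample 3, 9, without Runx3Δ RM sample 2, 9 and without Runx3Δ RM sample 4, 8.

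**Figure D3:**
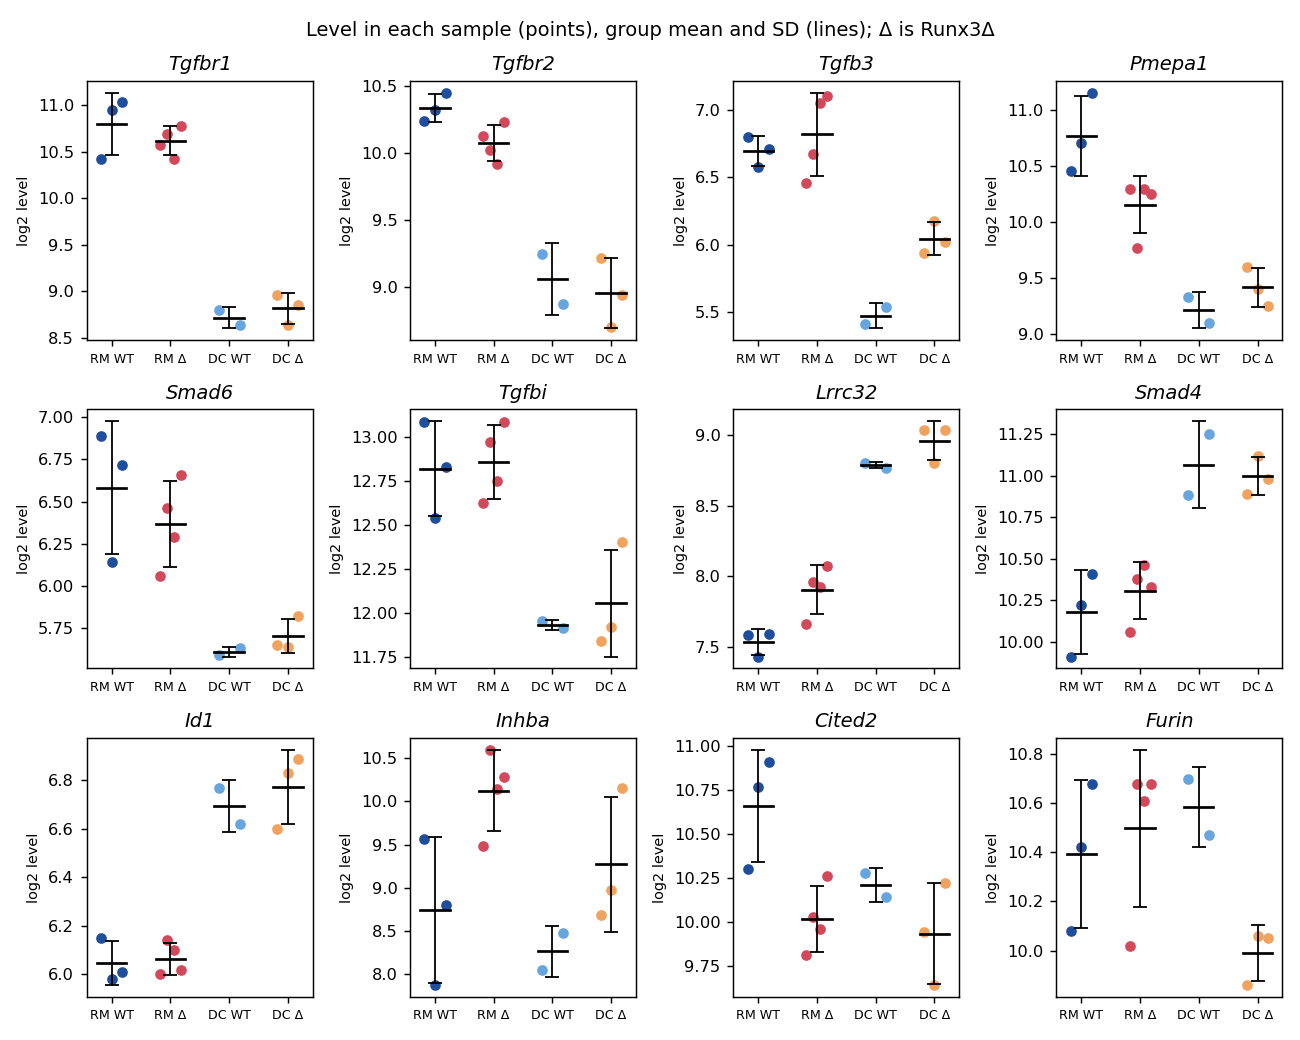
Log2 level of 12 member genes in each sample (points) with the group mean and SD (lines), for RM and CD11b+ DC of WT and Runx3Δ mice, where Δ on the axis is Runx3Δ and each panel has its own scale. The first 9 panels show genes that separate RM from CD11b+ DC in both genotypes, and Inhba, Cited2 and Furin in the last row show members that passed the study's thresholds by genotype in 1 cell type, with overlap in at least 1 cell type.

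The main question of the design was what the loss of Runx3 does in each cell type. In RM no member passed the adjusted threshold, beside 0.0141% of all rows and 0.0201% of genes, and 8 of 38 were at an unadjusted p under 0.05 in limma, or 21.1% against 7.96% of all rows and 9.03% of genes. At the study's own thresholds, a fold of 1.5 and an unadjusted p of 0.05, 3 of 38 passed, or 7.89% against 1.46% of all rows and 1.34% of genes: Inhba was higher and Pmepa1 and Cited2 were lower in Runx3Δ RM. The study itself lists Inhba as raised and Cited2 as lowered in these RM. Members were chosen with earlier results of these data known, so that this share is not independent of the choice. The lower mean was in Runx3Δ RM for 25 of 38 members, with a median difference of -0.15 against 0.01 over all genes. The 2 genotypes did not overlap for 5 members (Lrrc32 higher, and Tgfbr2, Smad7, Pmepa1 and Cited2 lower in Runx3Δ), beside 7.55% of all rows and 8.56% of genes.

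Inhba read 9.56, 7.87 and 8.80 in WT RM and 9.48, 10.60, 10.14 and 10.28 in Runx3Δ RM. The first sample of each genotype lay within the other's range, and the other 3 Runx3Δ samples lay above all of WT. The difference was 1.38 (SE 0.43, 2.61-fold, adjusted p = 0.453). Within litters it was -0.09, 2.73 and 1.35.

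Pmepa1 read 10.29, 9.77, 10.29 and 10.25 in Runx3Δ RM, below all 3 WT samples (10.45 to 11.15), and differed by -0.62 (SE 0.18, adjusted p = 0.394). Within litters the differences were -0.17, -0.93 and -0.86. Cited2, a cofactor of CBP and p300 that also serves as a partner of Smads, read 10.30, 10.77 and 10.91 in WT RM and 9.81, 10.03, 9.96 and 10.26 in Runx3Δ RM. Its groups did not overlap, and it differed by -0.65 (SE 0.17, adjusted p = 0.343), with -0.49, -0.74 and -0.96 within litters. None of these 3 genes passed the adjusted threshold under any of 24 alternative settings. Inhba kept the study's thresholds whichever sample was left out, while Pmepa1 missed them without Runx3Δ RM sample 2, Cited2 missed them without Runx3Δ RM sample 1, and both missed them without WT RM sample 3. Quantile normalization also ended the Pmepa1 call and left 2 members, Cited2 and Inhba. Without Runx3Δ RM sample 3 the count was 5, with Bmp2 and Bmp4 added.

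The TGF-beta receptors and Smads had smaller differences in RM. Tgfbr1 differed by -0.18 (95% interval -0.52 to 0.16) and Tgfbr2 by -0.26 (-0.57 to 0.04). The intervals allow a loss of up to 0.52 for Tgfbr1 and 0.57 for Tgfbr2 on the log2 scale. Smad2 read 7.62, 8.08, 7.80 and 7.98 in Runx3Δ RM and differed by -0.19, and Smad3 read 9.09, 8.60, 8.57 and 8.71 and differed by -0.20. Smad4 differed by 0.13 (95% interval -0.19 to 0.45).

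Smad7 read 7.43, 7.19, 7.19 and 7.35 in Runx3Δ RM, below the 3 WT samples of 7.57 to 7.72. Its difference was -0.34 (SE 0.10, adjusted p = 0.408). Smad6 read 6.06 to 6.66 in Runx3Δ RM and differed by -0.21. Lrrc32 differed by 0.37 (SE 0.11, adjusted p = 0.425), and the corepressors Ski, Skil and Tgif1 by -0.14, -0.32 and -0.39.

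Tgfb1 read 11.56, 11.74, 11.69 and 11.75 in Runx3Δ RM and differed by 0.08 (95% interval -0.15 to 0.31), Tgfb3 by 0.12 and Tgfbi by 0.04. Bmp2 differed by -0.55 (adjusted p = 0.537) and Bmp4 by -0.67 (SE 0.32, adjusted p = 0.649). Bmp4, a ligand best known from stromal cells, read 7.39, 7.69 and 6.71 in WT RM and 6.69, 6.32, 7.18 and 6.17 in Runx3Δ RM. Of 16 stromal marker genes 15 had the lower mean in Runx3Δ RM, 3 of them at the study's thresholds, with a median difference of -0.25. Their mean level was 6.24 to 6.82 in WT and 6.02 to 6.42 in Runx3Δ RM, and their part in the Bmp4 values was not tested.

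**Figure D4:**
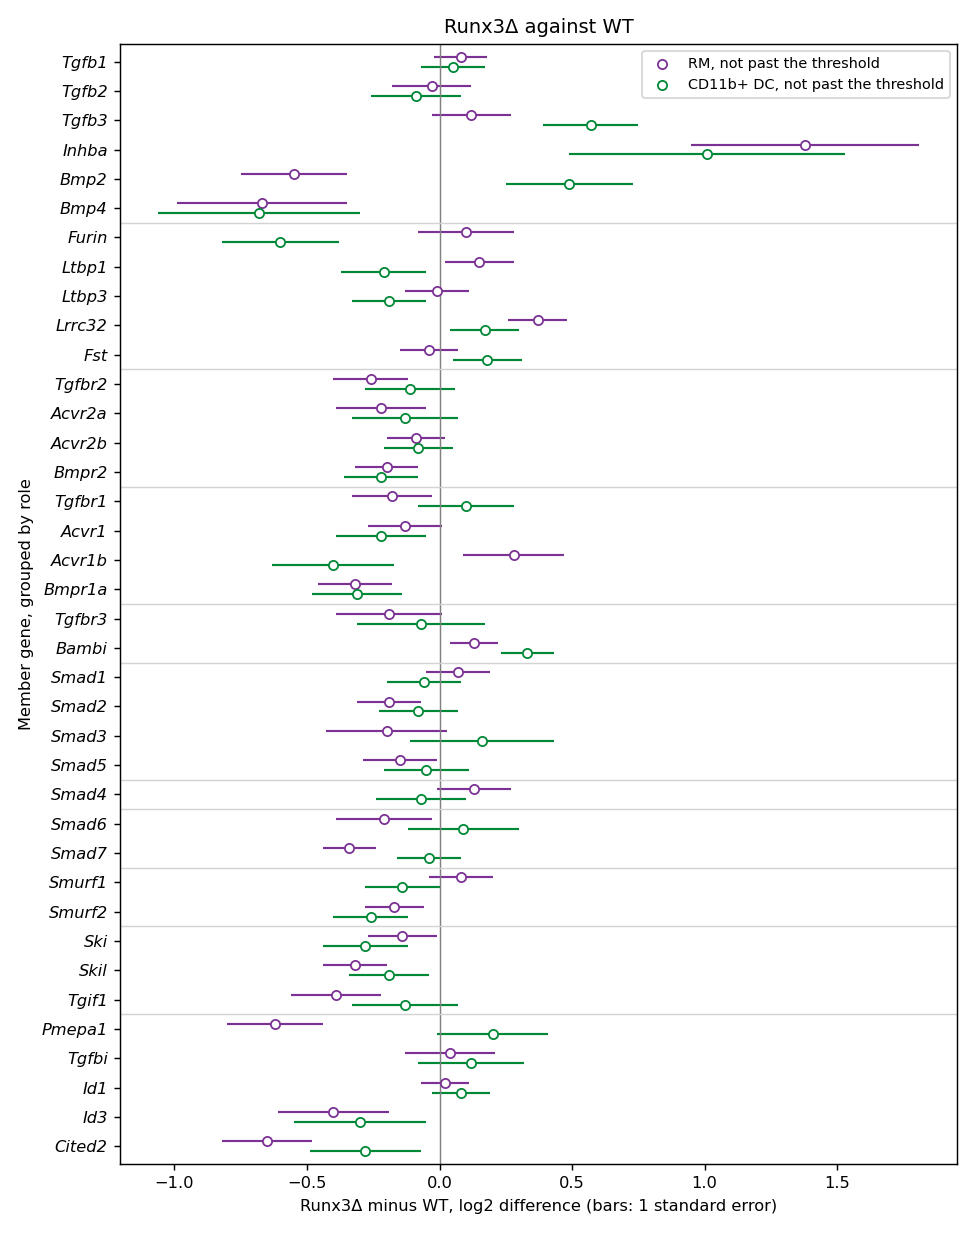
Log2 difference between Runx3Δ and WT for each member gene (rows, grouped by role) in RM (purple) and in CD11b+ DC (green), with bars of 1 standard error. All points are open because no member passed the adjusted threshold in either cell type, and Inhba lies farthest from 0, at 1.38 in RM and 1.01 in CD11b+ DC.

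In CD11b+ DC no member passed the adjusted threshold, as was the case for all 35556 rows, while 3 of 38 members were at an unadjusted p under 0.05 in limma, or 7.89% against 6.74% of all rows and 7.42% of genes (Bambi, Tgfb3 and Furin). At the study's thresholds 1 passed, or 2.63% against 2.13% of all rows and 1.75% of genes. That member was Furin, the protease that cleaves the TGF-beta precursor, which read 10.70 and 10.47 in WT and 9.86, 10.06 and 10.05 in Runx3Δ CD11b+ DC. The groups did not overlap and the difference was -0.60 (SE 0.22, adjusted p = 0.629). Furin no longer passed with litter as a fixed or as a random block, and no member did. The genotypes share only litter 3 in this cell type, so that most of the comparison is between litters. In RM, Furin read 10.08, 10.42 and 10.68 in WT and 10.02, 10.68, 10.61 and 10.68 in Runx3Δ, a difference of 0.10. Of the 38 members 9 did not overlap between the genotypes, 5 higher and 4 lower in Runx3Δ, beside 25.7% of all rows and 27.4% of genes.

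Inhba had the higher mean in Runx3Δ CD11b+ DC as well. It read 8.05 and 8.47 in WT and 8.68, 8.97 and 10.16 in Runx3Δ, with no overlap but with the third sample well above the others (difference 1.01, SE 0.52, adjusted p = 0.775). Tgfb3 read 5.41 and 5.54 against 5.94, 6.18 and 6.02 (difference 0.57, SE 0.18, adjusted p = 0.536), and Bambi, a decoy receptor without a kinase, 6.27 and 6.28 against 6.61, 6.61 and 6.60 (difference 0.33, adjusted p = 0.526). Cited2 read 10.28 and 10.14 against 9.94, 9.64 and 10.22 and differed by -0.28. Pmepa1 read 9.33 and 9.10 against 9.60, 9.40 and 9.25 and differed by 0.20.

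For the core of the pathway the differences in CD11b+ DC were 0.16 or less in size. Tgfbr1 differed by 0.10 (95% interval -0.30 to 0.51), Tgfbr2 by -0.11 (-0.48 to 0.26) and Smad4 by -0.07 (-0.45 to 0.31). Tgfb1 read 11.38, 11.43 and 11.47 in Runx3Δ and differed by 0.05. Smad2 read 7.64, 7.83 and 7.81 and differed by -0.08, and Smad3 read 9.16, 8.18 and 8.15, with 1 Runx3Δ sample nearly a unit above the rest, and differed by 0.16. Smad7 read 7.66, 7.46 and 7.68 and differed by -0.04.

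The median difference over the 38 members in CD11b+ DC was -0.08, with the lower mean in Runx3Δ for 25 of 38, against a median of 0.01 over all genes. This direction rests on 1 sample. Without the first WT CD11b+ DC sample the median was 0.05 and 17 of 38 were below 0, and without the second it was -0.18. The count at the study's thresholds was 0 without the first WT sample, 3 without the second (Bmp4, Furin and Tgfb3), 2 without the first Runx3Δ sample (Inhba and Tgfb3), 2 without the third (Acvr1b and Furin) and 2 without the second WT RM sample (Furin and Inhba).

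That first WT CD11b+ DC sample also had the higher stromal marker level of its group, 6.63 against 6.06, while the Runx3Δ CD11b+ DC lay between 5.63 and 5.96. Of the 16 stromal markers 15 had the lower mean in Runx3Δ CD11b+ DC, 3 of them at the study's thresholds, with a median difference of -0.48. Bmp4 read 7.31 and 6.14 in WT and 5.94, 5.99 and 6.21 in Runx3Δ CD11b+ DC, high in the same sample, and differed by -0.68 (adjusted p = 0.79). Of 5 monocyte markers 4 had the lower mean in Runx3Δ CD11b+ DC, 3 at the study's thresholds, with a median difference of -1.33 and mean levels of 9.29 to 9.69 in WT and 7.87 to 8.72 in Runx3Δ. The part of these cells in the members' values was not tested.

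Whether the loss of Runx3 acted differently in the 2 cell types was tested as the effect in CD11b+ DC minus that in RM. No member passed the adjusted threshold, nor did any of the 35556 rows, and 4 of 38 were at an unadjusted p under 0.05, or 10.5% against 3.91% of all rows and 3.63% of genes. The same 4 passed the study's thresholds, beside 1.95% of all rows and 1.33% of genes. Pmepa1 differed by -0.62 in RM and by 0.20 in CD11b+ DC, a difference between the effects of 0.82 (SE 0.28, adjusted p = 1.0). The Pmepa1 gap between RM and CD11b+ DC was accordingly 1.56 in WT and 0.73 in Runx3Δ mice.

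Bmp2, a BMP ligand, read 5.79, 6.69 and 5.84 in WT RM and 5.36, 5.45, 5.81 and 5.61 in Runx3Δ RM, but 5.54 and 5.84 in WT and 6.26, 6.12 and 6.18 in Runx3Δ CD11b+ DC. The difference between the effects was 1.05 (SE 0.32). Acvr1b differed between the effects by -0.68 (SE 0.30) and Furin by -0.70 (SE 0.28), each with an adjusted p of 1.0. Without the first WT CD11b+ DC sample 2 of the 4 passed, Bmp2 and Pmepa1, and the same 2 were left without the first Runx3Δ CD11b+ DC sample, the first WT RM sample or Runx3Δ RM sample 2, 3 or 4. Without the second WT CD11b+ DC sample Pmepa1 was not among them. With litter as a fixed block Acvr1b and Furin were lost and Bmp2 and Pmepa1 passed. Tgfbr1, Tgfbr2, Smad2, Smad3 and Smad4 were not among the 4.

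A wider list of 86 further genes of the pathway held other ligands, receptors, antagonists, latent TGF-beta activators and Smad partners, of which 83 had a row. In WT mice 6 of 83 were higher and 2 lower in RM than in CD11b+ DC, or 9.64% against 6.07% of all rows and 8.45% of genes, a share near the background. The 6 were Zfyve9 (SARA, which presents Smad2 to the receptor; difference 1.26), Itgav (the alpha chain of integrins that release TGF-beta; 1.51), Wwp1 (a ligase for Smads and receptors; 1.60), Zeb2 (a Smad-interacting repressor; 0.95), Gdf3 (a ligand; 1.01) and Thbs1 (thrombospondin, an activator of latent TGF-beta; 0.82). Zeb1, the other repressor of the Zeb pair, was lower in RM by 1.76 on the log2 scale (difference -1.76, adjusted p = 0.00071), and Snai1 differed by -0.69 (adjusted p = 0.0066).

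By genotype none of the 83 passed the adjusted threshold in either cell type. In RM none passed the study's thresholds, and the genes with the smallest p had small differences: Nedd4l -0.34, Trim24 -0.35, Zfyve9 -0.42, Bmp5 -0.36, Gdf3 -0.45, Cd109 -0.33, Zfyve16 -0.32 and Ep300 -0.31, with adjusted p of 0.474 to 0.649. In CD11b+ DC 2 of 83, or 2.41%, passed the study's thresholds with limma's p, Dcn (-1.19, adjusted p = 0.695) and Fstl1 (-0.63, adjusted p = 0.718), both secreted by stromal cells. By the methods' one-way analysis of the 2 groups 0 of 83 passed. The other 6 with the smallest p there were Bmp5 (-0.55), Snai1 (-0.43), Ltbp2 (0.50), Bmp10 (0.31), Tgfb1i1 (-0.40) and Zeb1 (-0.53).

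Dcn, which is also 1 of the 16 stromal markers, read 9.06 and 7.66 in WT and 7.40, 6.80 and 7.31 in Runx3Δ CD11b+ DC, and Fstl1 6.38 and 5.44 against 5.31, 5.11 and 5.45. Both were high in the first WT sample. Without that sample no gene of the wider list passed the study's thresholds in CD11b+ DC, without the second WT sample 7 did and without the third Runx3Δ sample 5 did. In RM, where none passed with all samples, 2 did without the first WT RM sample, 2 without the third and 1 without the second.

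A last list turns from the pathway's parts to genes that depend on its receptor in macrophages. It holds 60 macrophage genes that the study's supplement gives as rising during the maturation of colonic RM and as lower in RM that lack Tgfbr1, from other data sets, of which 58 had a row. The copy of the list used here may be short of some genes that the study counted, and the counts below hold for these 58. Tgfbr1, Smad7 and Pmepa1 are in it too. The study matched this list with its own genotype results, so that the list is not independent evidence of a direction in RM. The genes also rise with maturation, and the study reports fewer fully mature RM in Runx3Δ mice. Less TGF-beta signal and fewer mature cells cannot be told apart in this list. In WT mice 40 of 58 were higher in RM than in CD11b+ DC and none was lower, or 69.0% against 3.05% of all rows higher in RM, with a median difference of 1.11. The genes were chosen because they rise as RM mature, and the RM marker Cx3cr1 is among them. A high share in RM was thus largely built into the list and is no separate result.

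By genotype, the mean was lower in Runx3Δ RM for 53 of the 58, with a median difference of -0.28 against 0.01 over all genes. At the study's thresholds 13 of 58 were lower and none was higher, or 22.4% against 0.731% of all rows that were lower, and none passed the adjusted threshold. That count uses limma's p, and by the methods' one-way analysis of the 2 groups 9 of 58 passed. The median within litters was -0.24, -0.33 and -0.60. Mean levels over the list were 8.73, 8.98 and 9.17 in WT RM and 8.48, 8.58, 8.59 and 8.80 in Runx3Δ RM, so that the fourth Runx3Δ sample lay above the first WT sample. Without the third WT RM sample 42 of 58 were below 0, the median was -0.18 and 6 passed the study's thresholds, and without the first WT RM sample 18 passed them. In both comparisons of this paragraph and the last the WT RM samples are shared.

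The gene with the smallest adjusted p, 2900026A02Rik, read 6.98, 7.13 and 7.55 in WT RM and 5.84, 6.15, 6.13 and 6.40 in Runx3Δ RM (difference -1.09, SE 0.16, adjusted p = 0.0656). Fam189a2 read 6.69, 6.16 and 6.47 against 5.75, 5.05, 5.52 and 5.36 (difference -1.03, adjusted p = 0.148), and Dtx4, a regulator of Notch, 9.47, 9.68 and 9.84 against 8.81, 8.59, 8.89 and 9.23 (difference -0.78, adjusted p = 0.181). The genotypes were separate for all 3. The 5 that followed by p were Zfp691 (-0.58), Mylip (-0.66), Pxdc1 (-0.63), Mvb12b (-0.73) and Ntpcr (-0.65). With p adjusted over 1 row per gene in place of all rows, 3 of the 58 passed (2900026A02Rik, Dtx4 and Fam189a2).

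In CD11b+ DC the same list showed no common direction over all samples. Within litter 3, the only litter with CD11b+ DC of both genotypes, 37 of 58 were below 0 and 18 above, with a median of -0.08. The median was -0.07 without the third Runx3Δ CD11b+ DC sample and 0.04 without the second. With all samples the mean was lower in Runx3Δ for 28 of 58 and higher for 30, and the median difference was 0.01. The mean level over the list was 7.79 and 7.69 in WT and 7.70, 7.61 and 7.80 in Runx3Δ. At the study's thresholds Ermap was higher (0.70) and Sema4b (-0.63) and the collagenase Mmp13 (-0.91) were lower, or 5.17% against 2.13% of all rows. By the methods' one-way analysis of the 2 groups 1 of 58 passed. The others with the smallest p were F11r (0.56), Ccdc23 (0.35), Vipr1 (0.35), Pxdc1 (-0.40) and Soga1 (-0.32). For the difference between the effects, 9 of 58 passed the study's thresholds, all with the lower effect in RM, or 15.5% against 0.686% of all rows in that direction, and none passed the adjusted threshold. This count carries over the direction in RM, for which the list is not independent evidence. The list's mean level was also lower in WT CD11b+ DC (7.74) than in WT RM (8.96).

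**Figure D5:**
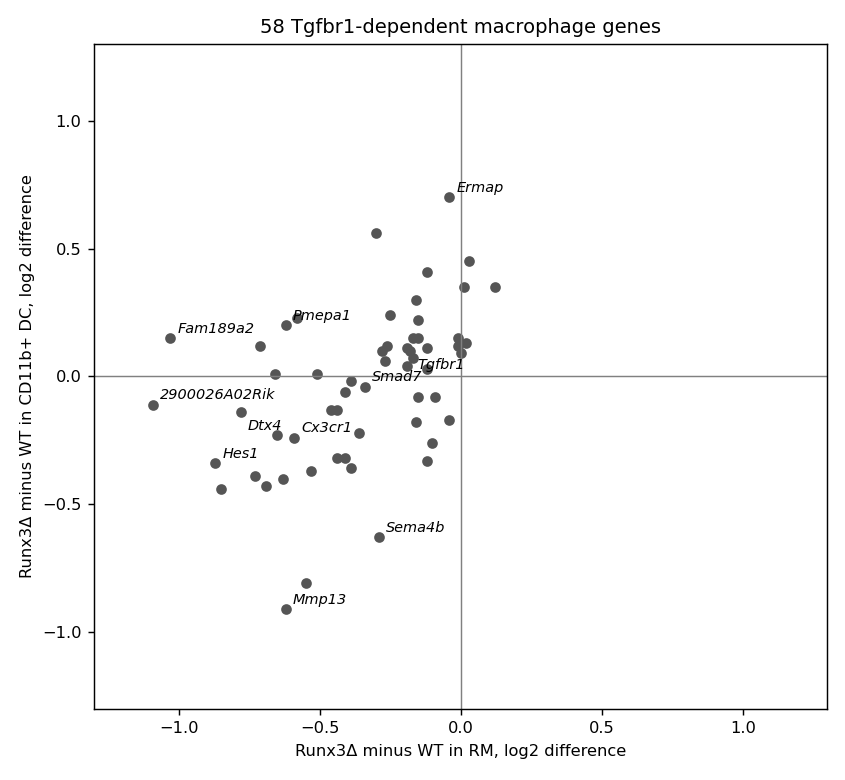
Log2 difference between Runx3Δ and WT in RM (horizontal axis) and in CD11b+ DC (vertical axis) for the 58 Tgfbr1-dependent macrophage genes, 1 point each, with some genes named. In RM 53 of 58 points lie left of 0, and along the vertical axis 28 lie below 0 and 30 above.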

How the data were processed

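RNA of sorted cecal cells was hybridised to Affymetrix mouse arrays. The authors deposited log2 intensities, made with RMA and GC correction in Partek. The methods name an exon array, while the annotation used here is that of a gene-level array. Where the submitters' processing notes list a build it is mm9, which was not used here: no probe was placed on the genome. Of 35556 rows, 21789 carried 1 gene symbol, 1621 several and 12146 none. The brightest row stood for a gene with several (Smurf2 among the members).

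A model with 4 groups was fitted with limma 3.58.1 (R 4.3.3, statmod 1.5.0) over all rows and p-values were adjusted by the Benjamini-Hochberg method over all 35556, with a threshold of 0.05. Counts at the study's thresholds (fold 1.5, p 0.05 without adjustment) stand next to it. They use the p of this fit, not that of the methods' one-way analysis, unless that is named. Samples of a group came from different litters, and p-values measure the spread between these pools. With 2 to 4 arrays a group, the number of arrays limits the precision. Its scripts were first checked on simulated arrays holding known differences.

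Litter numbers in the labels pair the samples, but only in part. RM of both genotypes came from litters 1, 2 and 3, and Runx3Δ RM also from litter 4. WT CD11b+ DC came from litters 2 and 3 and Runx3Δ CD11b+ DC from litters 1, 3 and 4. The genotypes thus share litter 3 alone in CD11b+ DC, where differences by genotype and by litter cannot be fully told apart. Deviations from group means correlated at a median of 0.0958 (-0.0412 to 0.358) over 13 pairs of the same litter and at -0.0347 (-0.257 to 0.203) over 40 of different litters. Alternatives were litter as a fixed or a random block, the methods' one-way analysis on the 2 groups, other normalization, row choice and variance settings, and each of the 12 samples left out. Figures were drawn with matplotlib 3.10.9 under Python 3.11.15.

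Members, gene lists and tests were chosen with earlier results of these data known. All 38 members are accounted for. Values in every sample are given for members past either threshold in a genotype comparison, for the 10 with the smallest p between the WT cell types and for Tgfb1, Tgfbr1, Tgfbr2, Smad2, Smad3, Smad4 and Smad7. Of the other lists, counts are given and up to 8 genes by smallest p in each genotype comparison. Values in every sample for Bmp2, Bmp4, Bambi, Dcn, Fstl1 and 3 of the Tgfbr1-dependent genes were added after they were seen. The macrophage, dendritic cell and monocyte markers had median differences of -0.10, 0.13 and -0.25 in RM and -0.10, -0.06 and -1.33 in CD11b+ DC. Marker lists of endothelial, epithelial, T and NK, B and plasma, mast, granulocyte and platelet cells had no gene past the adjusted threshold by genotype, and their median differences were 0.03, 0.20, 0.25, 0.06, 0.24, 0.17 and 0.01 in RM and -0.19, 0.33, 0.22, 0.07, -0.10, 0.11 and 0.10 in CD11b+ DC. That threshold tells little here, since 0.0141% of all rows passed it in RM and 0 in CD11b+ DC. In the same order the lists held 12, 13, 15, 8, 9, 10 and 6 genes. At the study's thresholds 0, 0, 1, 0, 1, 1 and 1 of these passed in RM, beside 1.46% of all rows. In CD11b+ DC 2, 2, 1, 0, 0, 2 and 0 passed, beside 2.13%.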

Additional observations from a re-analysis of the deposited data

Results flagged for a closer look

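Among the 4 Runx3Δ RM samples, 3 members had 1 sample far below the other 3, by Dixon's test at 95%: Furin at 10.02 in the first sample, Smad1 at 6.87 in the third and Pmepa1 at 9.77 in the second. With 38 members tested, chance flags about 1 in 20. Without the second Runx3Δ RM sample Pmepa1 no longer passed the study's thresholds in RM.

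The effect of genotype in CD11b+ DC minus that in RM was past a fold of 1.5 and an unadjusted p of 0.05 for Acvr1b (-0.68), Bmp2 (1.05), Furin (-0.70) and Pmepa1 (0.82), and none of these passed after adjustment over all rows.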

How the results depend on the processing

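No called difference of a named member changed sign. The median over the members, which has no test, did: in CD11b+ DC it was 0.05 without the first WT CD11b+ DC sample, and for the difference between the effects it went from 0.07 to -0.08 without the second and to -0.01 without the second WT RM sample. By genotype, no member passed the adjusted threshold under any alternative in RM, in CD11b+ DC or for the difference between them. At the study's thresholds, median centring gave 5 members in RM and 2 for the difference between the effects, and quantile normalization gave 2 in RM. In CD11b+ DC, 1 row per gene gave 2, and quantile normalization gave 0. Between the cell types, the methods' one-way analysis of the 2 groups gave 0 adjusted calls in WT and 6 in Runx3Δ, a fit of the 2 WT groups alone gave 5 in WT, and median centring gave 9 in Runx3Δ. With litter as a fixed replicate block, the pairing gave 10 adjusted calls in WT and 11 in Runx3Δ, and at the study's thresholds 3 in RM, 0 in CD11b+ DC and 2 for the difference. With litter as a random block CD11b+ DC had 0, and the cell type calls stayed at 9 and 14.

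Leaving out 1 sample at a time gave 2 to 5 members at the study's thresholds in RM, 0 to 3 in CD11b+ DC and 2 to 4 for the difference between the effects, a median in CD11b+ DC of -0.18 to 0.05, and 6 to 11 adjusted calls between cell types in WT and 6 to 13 in Runx3Δ. Why the counts moved was not tested. Tgfbr1, Tgfbr2, Lrrc32, Pmepa1 and Tgfb3 passed in WT under every alternative except the methods' one-way analysis. A signal near the low end of the array limits Bmpr1a, Tgfb2, Acvr2b, Tgfbr3, Ltbp1 and Fst. Tgfb3 and Smad6 in CD11b+ DC, Id1 in RM and Bmp2 in most samples also read close to a log2 level of 6 or under it. The same limit touches their differences.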
